A study of Mus musculus with 6 samples.

Results

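The 10 genes described here encode carriers that move amino acids across the plasma membrane, and they were compared between stromal cells of mouse skin wounds and of uninjured dermis. They were taken by gene identifier from the authors' normalized table and followed to their probes on 6 arrays. All 10 were found among 23044 genes present on both array designs used, and all 10 passed the filter on dim probes, which left 16738 genes for testing. The wound cells were sorted as CD45-, CD31- cells with a high signal of the SMA-GFP reporter (SMA-GFP+++) from wounds 7 days after injury, and are labelled myofibroblasts. The skin cells were sorted as CD45-, CD31- cells with a low signal (SMA-GFP+) from dermis, and are labelled fibroblast-like cells. Both groups came from transgenic SMA-GFP mice, in which GFP reports smooth muscle actin expression, and the age and strain of the mice are not given in the sources used here. Each group has 3 arrays, 2 on design 026655 and 1 on design 028005. Every wound sample was both injured and high in reporter, so injury and reporter level cannot be told apart. Whether each array had its own animal is not in the labels, and p-values therefore measure only the scatter of these samples, part of which may be technical.

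Amino acids enter a cell through carriers with overlapping substrates. Sodium-coupled carriers of the SLC38 and SLC1 families take up glutamine, alanine, serine and other small neutral amino acids, and SLC7 proteins bring in large neutral amino acids, cystine or arginine and lysine, some of them in exchange for an amino acid that leaves. Fibroblasts that deposit matrix need glycine and proline for collagen, cystine for glutathione, and glutamine and leucine for growth. When amino acids run short, or the endoplasmic reticulum is stressed, the transcription factor ATF4 pairs with C/EBP proteins on a composite element in many transporter and synthesis genes.

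Promoter sequences that include 250 bases before the transcript start were given by RefSeq (build GRCm38.p6) for 7 of the 10 genes, as 12 sequences of 300 bases. None was given for Slc7a5, Slc1a5 and Slc38a1, and bases outside these sequences were not searched. They were searched on both strands for TGATGNAA, the core of the C/EBP-ATF composite element, where N is any base. The motif was in 1304 of 32851 promoters (3.97%) and, among the transporters, in the promoters of Slc7a11 and Slc1a4. The Slc7a11 promoter held 2 copies, on opposite strands, beginning 66 and 47 bases before the start. Only 23 of the 32851 promoters (0.0700%) held 2 or more. The Slc1a4 promoter held 1 copy across the start. They are shown because they are the transporter promoters in which the motif was found. The 260 bases printed for each run from 250 bases before the start, with the motif on either strand in capitals. The printed bases of Slc7a11 are chr3:50443604-50443863, minus strand, and those of Slc1a4 are chr11:20332704-20332963, minus strand.
Slc7a11: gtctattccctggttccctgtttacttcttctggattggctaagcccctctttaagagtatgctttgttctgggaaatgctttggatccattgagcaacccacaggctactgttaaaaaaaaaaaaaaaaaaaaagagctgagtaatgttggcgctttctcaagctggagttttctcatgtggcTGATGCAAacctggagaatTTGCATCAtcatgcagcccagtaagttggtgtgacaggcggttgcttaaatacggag
Slc1a4: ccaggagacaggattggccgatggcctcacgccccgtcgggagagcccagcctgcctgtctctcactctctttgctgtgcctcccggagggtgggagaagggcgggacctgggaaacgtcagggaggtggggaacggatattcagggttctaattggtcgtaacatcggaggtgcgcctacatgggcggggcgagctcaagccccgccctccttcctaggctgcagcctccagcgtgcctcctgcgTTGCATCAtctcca
A second search used TGACNNNGC, the core of the antioxidant response element to which NRF2 binds. It was in 12.4% of all promoters and in 4 of the 12 sequences of the transporters, from Slc6a9, Slc7a1 and Slc38a2. A match is a run of letters and not a measured binding site.

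Of the 10 transporters, 4 were higher in wound cells (Slc38a4, Slc38a1, Slc7a11 and Slc6a9), 1 was lower (Slc38a2), and 5 did not pass the test (Slc7a5, Slc3a2, Slc7a1, Slc1a4 and Slc1a5). Among all genes tested, 34.1% passed, with 18.5% higher and 15.6% lower in wound cells, which is the background for 5 of 10. The test was limma's linear model with a term for the array design, and a gene was called at a Benjamini-Hochberg adjusted p under 0.05. The median log2 difference of the 10 genes was 0.17, beside 0.04 over all genes tested, and its sign turned under several other settings. Values below are log2 signals relative to the 75th percentile of the same array, so 0 stands for a signal equal to that percentile. A probe's level says nothing about another probe's, and only differences between arrays are compared. The term for the design takes out shifts in level between the 2 designs. In these bulk samples, fewer cells that express a gene and less RNA per cell cannot be told apart.

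**Figure D1:**
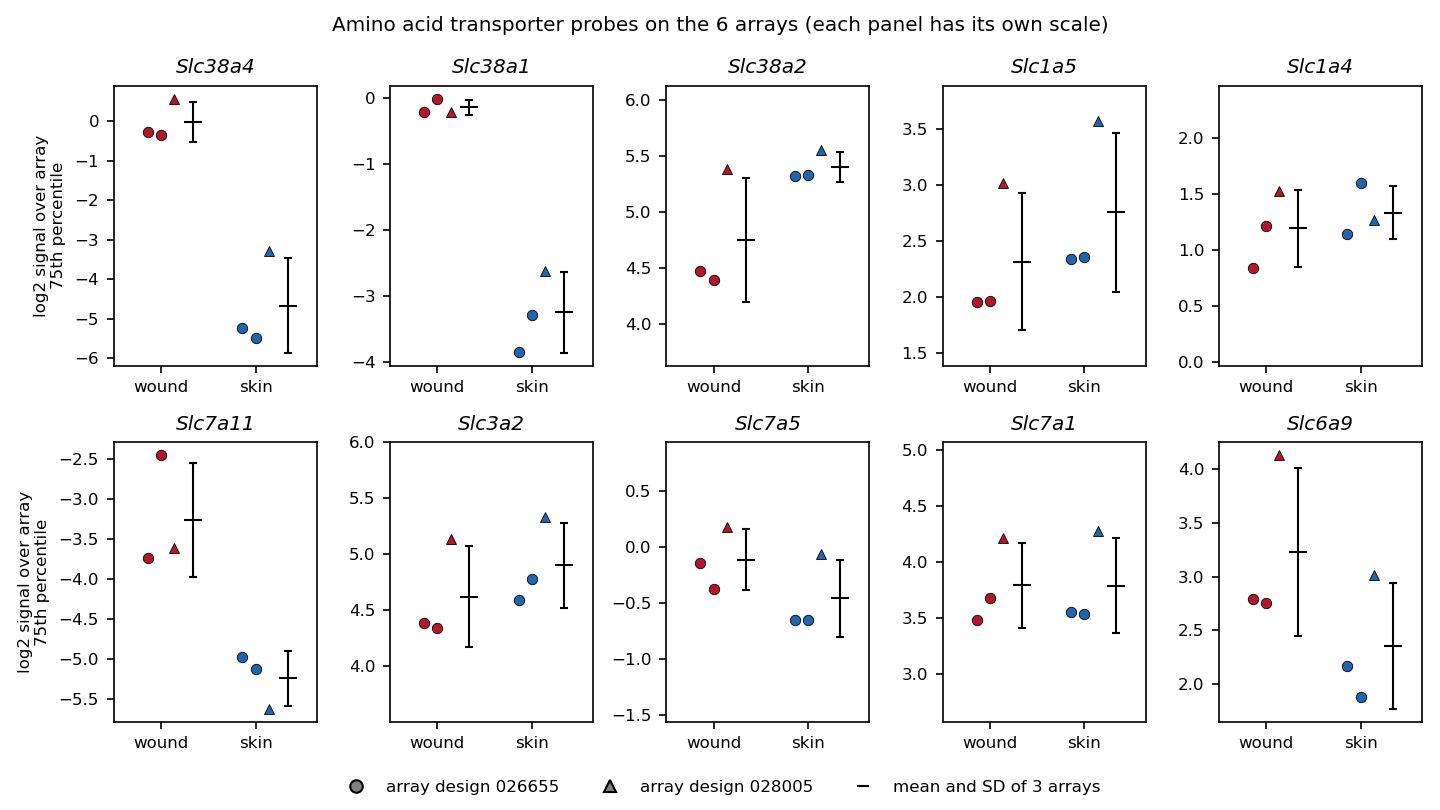
Log2 signal over the array's 75th percentile (vertical axis) of the probe used for each of 10 transporters, with the 3 wound arrays left and the 3 skin arrays right. Circles are arrays of design 026655 and triangles of design 028005, and bars are the mean and SD of 3 arrays. Slc38a4, Slc38a1 and Slc7a11 show wound arrays above all skin arrays.

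The 3 SLC38 genes encode sodium-coupled carriers of small neutral amino acids, and in the RefSeq annotation (GRCm38.p6) they are neighbours with 0 other protein-coding genes between them. They differed in opposite directions. Slc38a4, which is imprinted in the mouse and best known from liver and placenta, read -0.27, -0.35 and 0.57 on wound replicates 1, 2 and 3, against -5.24, -5.48 and -3.30 on skin replicates 1, 2 and 3. The groups did not overlap, as was true of 17.1% of all genes tested. Wound cells exceeded skin cells 25.2-fold in Slc38a4 by the model, a log2 of 4.66 (SE 0.27, limma adjusted p = 0.000122). With sign kept, the log2 difference of Slc38a4 was above that of 99.6% of genes tested. Its probe was well above background on all 3 wound arrays and on 2 of 3 skin arrays. The difference was 5.05 on design 026655 and 3.87 on 028005. Background correction by normexp with an offset of 50, followed by quantile scaling within each design, gave a log2 of 2.79, while quantile scaling alone gave 4.63.

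Slc38a1, a glutamine carrier, read -0.21, -0.01 and -0.21 on wound replicates 1, 2 and 3, against -3.84, -3.28 and -2.61 on skin replicates 1, 2 and 3. The wound arrays lay within a narrow band and above every skin array. The difference was 8.59-fold (log2 3.10, SE 0.28, limma adjusted p = 0.000466), with 3.45 on design 026655 and 2.41 on 028005. Of 3 probes, a second gave a log2 of 2.56 (limma adjusted p = 0.00714 among all probes) and was well above background on 1 skin array. The third was well above background on no array. The mean of all probes gave 2.20, normexp with quantile scaling 2.29 and the authors' deposited values 2.25, each a smaller fold than that of the brightest probe.

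Slc38a2, the carrier that is induced when amino acids are scarce, went the other way. It read 4.47, 4.39 and 5.39 on wound replicates 1, 2 and 3, against 5.32, 5.33 and 5.56 on skin replicates 1, 2 and 3. Within each design the wound arrays were the lower ones, while across designs the groups overlapped. Slc38a2 fell by 0.65 on the log2 scale (SE 0.19, limma adjusted p = 0.0432). It fell by 0.90 on design 026655 and by 0.17 on 028005. This call was close to the threshold. It was lost when either wound replicate 1 or 2 or skin replicate 1 or 2 was left out, with adjusted p = 0.126, 0.110, 0.156 and 0.130 in that order by the same limma model.

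The SLC1 members exchange neutral amino acids. Slc1a5, the exchanger ASCT2 that imports glutamine, read 1.95, 1.97 and 3.02 on wound replicates 1, 2 and 3, against 2.34, 2.36 and 3.57 on skin replicates 1, 2 and 3. Each design had its wound arrays below its skin arrays, by 0.39 and 0.55 on designs 026655 and 028005. The model gave a log2 of -0.44 (SE 0.14), which did not pass the threshold (limma adjusted p = 0.0528). Its other probe, with a log2 of -0.52, was past the threshold (limma adjusted p = 0.0423), as was the gene in the authors' deposited table (-0.54, adjusted p = 0.0345). Slc1a5 was also called lower by limma with quantile scaling (adjusted p = 0.0209), with normexp and quantile scaling (0.00959), with the filter on all 6 arrays (0.0479) and with the mean of its probes (0.0466). Slc1a4, the exchanger ASCT1 for alanine, serine and cysteine, read 0.84, 1.22 and 1.53 on wound replicates 1, 2 and 3, against 1.14, 1.60 and 1.27 on skin replicates 1, 2 and 3. The 2 groups overlapped, and the designs gave -0.34 and 0.26. Its log2 difference was -0.14, with a 95% interval of -0.68 to 0.40 (limma adjusted p = 0.665).

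Slc7a11, the cystine and glutamate exchanger xCT that supplies cysteine for glutathione, rose in wound cells. It read -3.74, -2.45 and -3.61 on wound replicates 1, 2 and 3, against -4.98, -5.13 and -5.63 on skin replicates 1, 2 and 3. Every wound array was above every skin array. The difference was 3.94-fold (log2 1.98, SE 0.33, limma adjusted p = 0.00541), with 1.96 on design 026655 and 2.02 on 028005. The probe was dim in both groups, and the skin array on 028005 was not well above background. Normexp with quantile scaling gave a log2 difference of 0.78 and kept the call (limma adjusted p = 0.0112), while quantile scaling alone gave 2.04.

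Slc3a2 encodes the heavy chain 4F2hc, also called CD98, with which Slc7a11 and Slc7a5 form heterodimers at the cell surface. It read 4.38, 4.34 and 5.14 on wound replicates 1, 2 and 3, against 4.59, 4.78 and 5.33 on skin replicates 1, 2 and 3. Its arrays overlapped across designs, with the wound arrays lower within each. The log2 difference of the heavy chain was -0.28, with a 95% interval of -0.63 to 0.07 (limma adjusted p = 0.192). It passed the threshold as lower under normexp with quantile scaling (log2 -0.45, limma adjusted p = 0.0361), while quantile scaling alone gave -0.45 without a call (limma adjusted p = 0.0764). Slc7a5 is the light chain LAT1, which imports leucine and other large neutral amino acids. Its 2 probes pointed in opposite directions.

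The brighter Slc7a5 probe, A_55_P1973941, read -0.14, -0.38 and 0.17 on wound replicates 1, 2 and 3, against -0.66, -0.66 and -0.06 on skin replicates 1, 2 and 3. It gave a log2 of 0.34, with a 95% interval of -0.02 to 0.71 (limma adjusted p = 0.127). The other probe, A_55_P2017972, read -1.23, -0.69 and -0.52 on wound replicates 1, 2 and 3, against -0.64, -0.29 and 0.31 on skin replicates 1, 2 and 3. It gave a log2 of -0.61 (SE 0.21, limma adjusted p = 0.0749 among all probes). Both probes were well above background on all arrays, neither passed the threshold, and no direction can be given for the gene. Over the 6 arrays, the genes whose values ran most like those of the brighter probe were Gtf2a2, Pigx, Gfra2, Eef1akmt2 and Fcf1. Their root mean square distances to it, after centring within each design, lay between 0.0179 and 0.0296 log2 units. This is a description over 6 arrays that fall into 2 groups.

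**Figure D2:**
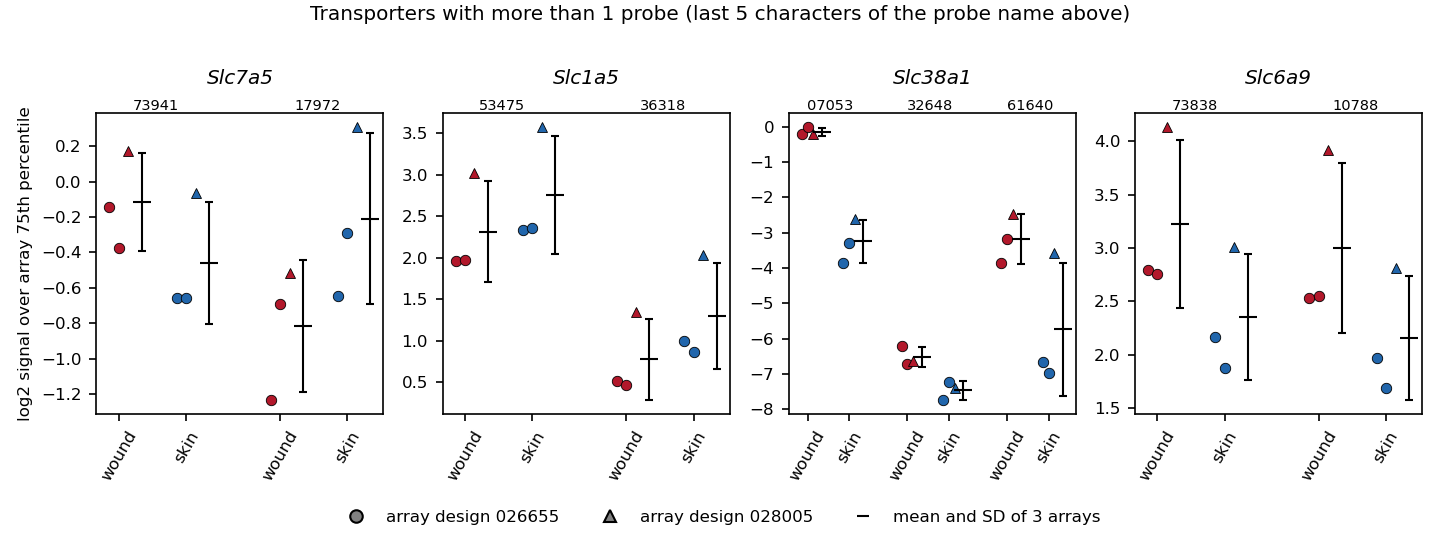
Log2 signal over the array's 75th percentile (vertical axis) for each probe of the 4 transporters with more than 1 probe, wound arrays left of skin arrays, with the mean and SD of 3 arrays. The Slc7a5 probes differ in opposite directions, while the probes of Slc1a5, Slc38a1 and Slc6a9 differ the same way within each gene.

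Slc7a1, the arginine and lysine carrier CAT1, needs no heavy chain. It read 3.48, 3.68 and 4.22 on wound replicates 1, 2 and 3, against 3.56, 3.53 and 4.28 on skin replicates 1, 2 and 3. The groups overlapped on design 026655 and lay 0.06 apart on 028005. The log2 difference was 0.00 (SE 0.15, limma adjusted p = 0.989), with a 95% interval of -0.35 to 0.35, and its sign turned under other scalings.

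Slc6a9 encodes GlyT1, which takes up glycine together with sodium and chloride. It read 2.79, 2.75 and 4.13 on wound replicates 1, 2 and 3, against 2.17, 1.88 and 3.01 on skin replicates 1, 2 and 3. Wound arrays were higher than skin arrays within each design, although the skin array on 028005 was above the wound arrays on 026655. Slc6a9 rose 1.83-fold in wound cells (log2 0.87, SE 0.17, limma adjusted p = 0.00918), with 0.75 on design 026655 and 1.12 on 028005. A second probe gave a log2 of 0.84 (limma adjusted p = 0.0121). The call was lost with the 75th percentile taken over probes well above background (log2 0.69, limma adjusted p = 0.0560).

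**Figure D3:**
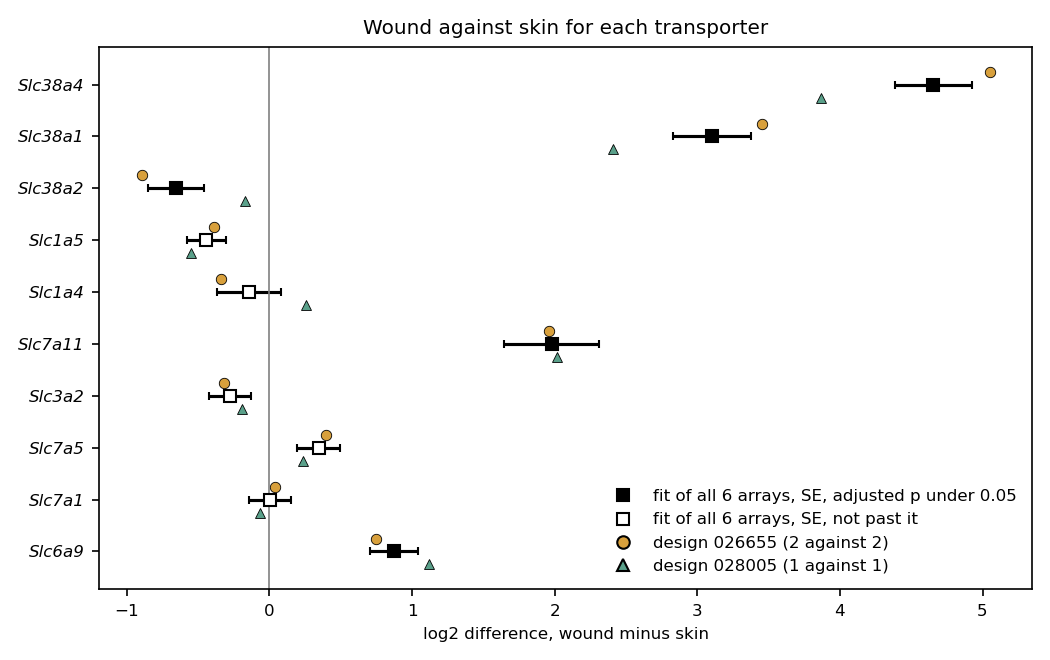
Log2 difference, wound minus skin (horizontal axis), of each transporter. Squares with SE bars are the fit of all 6 arrays, filled where the adjusted p was under 0.05, and circles and triangles are the differences within designs 026655 and 028005. Slc38a4, Slc38a1, Slc7a11 and Slc6a9 lie right of 0 on both designs, and Slc1a4 and Slc7a1 change sign between them.

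Other amino acid carriers of the plasma membrane and lysosome were examined as a list of 42 genes, of which 41 were on both designs and 27 were tested. Of the 27, 7 rose and 6 fell, which left 14 uncalled (48.1% called, against 34.1% of all genes, with a median log2 of 0.33). Without skin replicate 1 only 3 rose. With the 75th percentile over probes well above background 3 rose and 7 fell, and 4 rose and 7 fell in the authors' deposited table, so the balance of directions depended on the setting. Slc38a11, a further SLC38 family member, read -4.04, -2.47 and -1.29 on wound replicates 1, 2 and 3. On the skin arrays its probe was not well above background, so that wound cells had at least 7.75 times as much (limma adjusted p = 0.000608). For Slc1a2, a glutamate carrier best known from astrocytes, the same bound was 3.96-fold (limma adjusted p = 0.000327). For these bounds the dim group was given, on each array, its own signal or the dimmest one still well above background, whichever was greater. An adjusted p beside a bound, here and below, is that of the fitted log2 difference of the signals as read, not of the bound.

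Slc7a4 rose 2.32-fold (log2 1.22, SE 0.17), and the other 4 that rose had log2 differences of 0.57 to 0.94. The proline carrier Slc6a7 was at least 3.89-fold lower on the wound arrays, where its probe was not well above background (limma adjusted p = 0.000471). Slc1a7 and Slc1a1, both glutamate carriers, fell by 1.38 and 1.30 on the log2 scale. SLC1 family members were thus called in both directions.

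Genes of the amino acid response moved both ways: 6 of 21 rose, 7 fell and 8 were not called (61.9% called, against 34.1% of all genes, median log2 -0.12). Asns, the asparagine synthetase and a classic ATF4 target, rose 2.53-fold, reading 2.91, 2.67 and 4.01 on wound replicates 1, 2 and 3, against 1.22, 1.69 and 2.66 on skin replicates 1, 2 and 3. The lipoprotein receptor Vldlr rose 5.77-fold and the hormone Fgf21, well above background on 2 of 3 skin arrays, rose 4.72-fold. Stc2, which encodes stanniocalcin 2, was 17.5-fold lower, Gdf15, a stress-induced TGF-beta family cytokine, 5.75-fold lower, and Atf5, a relative of Atf4, 2.34-fold lower. Atf4 itself had a log2 difference of -0.12 (limma adjusted p = 0.608), which concerns its RNA, while the factor is known to be controlled mainly at translation. Slc38a2, which is itself an ATF4 target, was thus lower while Asns was higher, but the Slc38a2 call was lost under several settings.

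Enzymes that make serine, glycine and proline, or carry one-carbon units, included 4 of 15 that rose, 2 that fell and 9 not called (40.0% called, against 34.1% of all genes, median log2 0.03). The count that rose was 2 without skin replicate 1, and 2 without wound replicate 3 or skin replicate 3. Leaving out either replicate 3 gave the same fit, that of design 026655 alone, so these are not separate checks. Aldh1l2, a mitochondrial folate enzyme, rose 2.90-fold, and Psat1 and Psph, which act in succession in serine synthesis, rose 2.38-fold and 1.70-fold. Mthfd1, a cytosolic folate enzyme, and Prodh, which degrades proline, were 2.34-fold and 2.19-fold lower.

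Glutamine, glutamate and aspartate enzymes included 2 of 11 that rose, 3 that fell and 6 not called (45.5% called, against 34.1% of all genes, median log2 -0.11). Got1, the cytosolic aspartate aminotransferase, rose 5.78-fold and Bcat1, which transaminates leucine, isoleucine and valine, 5.29-fold. Glul, the glutamine synthetase, was 2.63-fold lower, Gls2, a glutaminase, 1.71-fold lower and Glud1, the glutamate dehydrogenase, 1.52-fold lower.

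Genes of cystine use and glutathione synthesis included 3 of 14 that rose, 2 that fell and 9 not called (35.7% called, against 34.1% of all genes, median log2 0.17). Without wound replicate 1, only 1 rose. Srxn1, a sulfiredoxin that repairs peroxiredoxins, rose 5.44-fold. Thioredoxin Txn1 rose 1.55-fold. Cth, which makes cysteine from cystathionine, rose 2.72-fold, with its probe well above background on 2 of 3 skin arrays. Cbs, the enzyme before Cth in that route, was 8.48-fold lower and Nqo1 2.93-fold lower. Gclc and Gclm, the subunits of the enzyme that starts glutathione synthesis, had log2 differences of -0.12 and -0.40 and did not pass the threshold (limma adjusted p = 0.612 and 0.201).

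Of 20 cytosolic aminoacyl-tRNA synthetases, which charge tRNAs with the imported amino acids, 4 rose and 0 fell, with 16 not called (20.0% called, against 34.1% of all genes, median log2 0.23). With any 1 of the 6 arrays left out, 1 or 2 rose, and without wound replicate 2, 1 fell. Gars, for glycine, rose 2.57-fold, Cars, for cysteine, 1.57-fold and Aars, for alanine, 1.47-fold. Of 22 genes of amino acid sensing by mTORC1, the kinase complex that reads amino acid supply at the lysosome, 3 rose and 1 fell, with 18 not called (18.2% called, against 34.1% of all genes, median log2 0.11). Depdc5, a GATOR1 subunit that holds mTORC1 back, rose 3.31-fold, the arginine sensor relative Castor2 2.26-fold and Fnip1, the partner of folliculin, 1.48-fold. Rragb, a Rag GTPase, was at least 1.74-fold lower in wound cells, where its probe was not well above background.

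**Figure D4:**
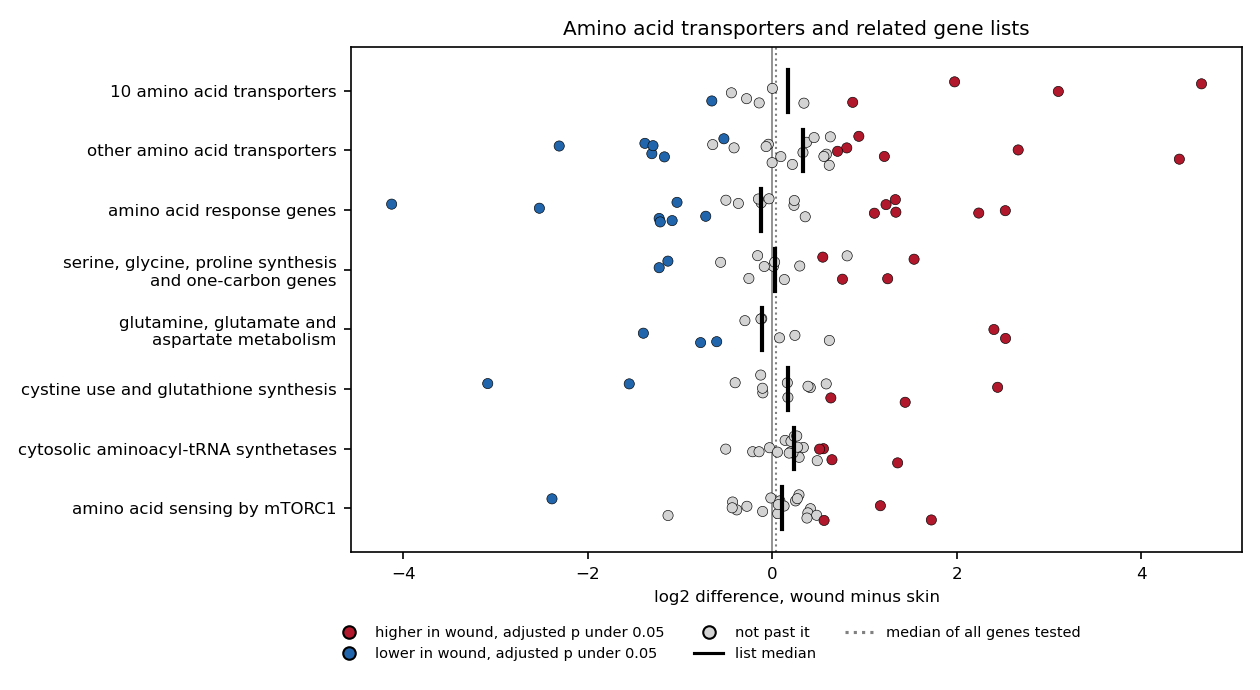
Log2 difference, wound minus skin (horizontal axis), of each tested gene in the 10 transporters and 7 related lists (rows, jittered vertically). Red and blue points had an adjusted p under 0.05, black bars are list medians and the dotted line is the median of all genes tested. List medians lie between -0.12 and 0.33 although single genes reach beyond 4 in either direction.

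Markers of other cell types also differed between the groups. Acta2, whose expression the reporter reads, was 26.1-fold higher in wound cells, which checks the labels. Of all genes, 18.5% were higher and 15.6% lower. Mural cell markers were higher for 7 of 10 genes, with a summed signal of 88.8 to 235 times the array's 75th percentile on wound arrays and 33.6 to 66.9 times on skin arrays. Keratinocyte markers were lower for all 9 tested of 10, with sums of 0.636 to 2.63 on wound arrays and 18.4 to 47.8 on skin arrays, and on wound arrays Krt1 and Cdh1 were not well above background. Ptprc, which encodes CD45, and Pecam1, which encodes CD31, did not pass the threshold. Endothelial markers were higher for 4 of 9 tested, with sums of 8.70 to 22.0 on wound arrays and 4.27 to 17.9 on skin arrays. White blood cell markers had 1 of 10 tested genes higher and 2 lower. Their sums were 23.4 to 105 on wound arrays and 23.7 to 120 on skin arrays. These sums came mostly from the Itgam probe, with mean log2 signals of 5.19 on wound arrays and 5.01 on skin arrays. The Ptprc probe had means of -5.23 and -5.02. All marker sums add levels across probes and follow the brightest ones, and each range spans both designs. They do not compare amounts between cell types. Fibroblast markers had 0 of 10 higher and 3 lower (Pi16, Pdgfra and Fbln1). These changes run in the same arrays as those of the transporters, and their part in the transporter differences was not tested.

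**Figure D5:**
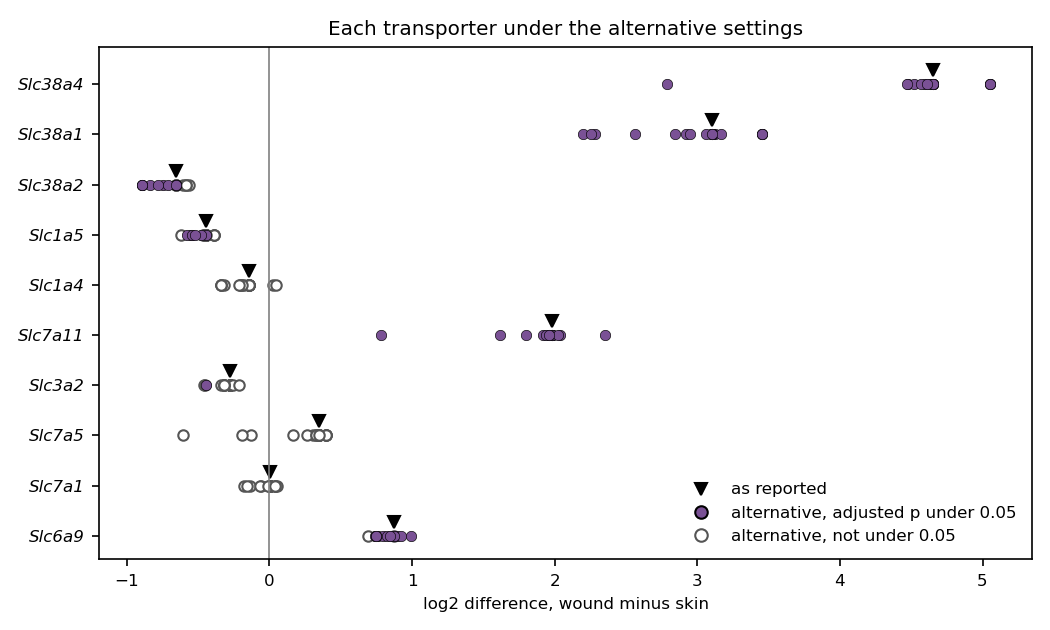
Log2 difference, wound minus skin (horizontal axis), of each transporter as reported (triangle) and under each alternative setting (circles, filled where the adjusted p was under 0.05). All alternatives of Slc38a4, Slc38a1 and Slc7a11 are filled and right of 0, and those of Slc7a5, Slc7a1 and Slc1a4 lie on both sides of 0.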

How the data were processed

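RNA of 3 wound and 3 skin samples was hybridised to 1-colour Agilent arrays after amplification, per the series' design text. That text names a human array, while the organism label and the matched probes are mouse. Spot intensity, on a linear scale, is what the deposited scanner output gives: the authors extracted it with Feature Extraction 10.7.3.1 from Agilent, per the file headers, which also name build mm9. The quality marks, unit other, are the software's and were deposited with them. The authors also made a gene-level table of the 2 designs (GeneSpring 14.5, per the series' design text), whose scale is not stated. Its differences between arrays followed those of the log2 scanner values averaged over each gene's probes. Slopes, and likewise Pearson correlations, were 1.00, 1.00 and 0.975 in replicates 1, 2 and 3, so the deposited values were taken as log2. Its columns have medians of -0.28, -0.27 and -0.23 for wound and -0.21, -0.25 and -0.25 for skin replicates 1, 2 and 3. Its centring is unknown and how it combines probes is not stated. Because its differences ran so close to the mean of probes, these are not independent settings where both are cited. It left 0 columns unmatched to samples.

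Control and outlier spots were left out and spots of a probe averaged. Each array's 75th percentile was subtracted from its log2 processed signals, and a value is that of the brightest probe of a gene on each design. Probes were named by the identifiers in the authors' table, otherwise by RefSeq accession (GRCm38.p6). On designs 026655 and 028005, 30621 of 39429 and 30647 of 55681 probes got a symbol. Genes were tested if well above background on all 3 arrays of a group (limma 3.58.1, R 4.3.3), after the model was tested on simulated data. Each design was 1 slide and 1 scan. Of all spots, 64.4% to 72.6% were well above background per array and 0 were saturated. The number of arrays limits precision. The planned normexp input was not in the files, so median spot signals were used, followed by quantile scaling within each design. The 10 transporters and the lists were chosen with earlier results of these data known. The text names all 10, up to 3 called genes per direction with the largest differences in each list, and the 5 genes most like Slc7a5. Atf4, Gclc, Gclm and marker genes beyond this rule were named after their values were seen. Alternatives covered scaling, background, probe choice, filter, model terms, threshold and left-out arrays.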

Additional observations from a re-analysis of the deposited data

How the results depend on the processing

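The calls of Slc38a4, Slc38a1 and Slc7a11 held under every alternative run for them. Not all of these alternatives were separate fits. Leaving out wound replicate 3 or skin replicate 3 gave the same fit as design 026655 alone, with 4519 genes called each time. The lone array left on the other design was taken up by the term for the design. The filter on all 6 arrays left Slc38a4 and Slc7a11 untested, since each was well above background on 2 of 3 skin arrays. Without a term for the array design, 1765 of all genes and 3 of the transporters passed, in place of 5701 and 5, and at an adjusted p under 0.01 3195 genes did. Slc6a9 and Slc38a2 were the calls lost without that term (limma adjusted p = 0.643 and 0.858). In that setting limma gave every transporter the same SE, 0.62, so the calls followed the size of the difference and not each gene's own scatter. Leaving out 1 array at a time gave 3755 to 5023 genes, the lowest without skin replicate 1, and 4 to 5 transporters. The transporters' median log2 difference was 0.0841 under normexp with quantile scaling, 0.0933 under quantile scaling alone and 0.22 on design 026655 alone. It was -0.00675 with the percentile over probes well above background, -0.0638 with the mean of probes and -0.12 in the authors' deposited table. With 1 array left out it was 0.157 to 0.218. With the filter on all 6 arrays it was -0.0689, but that filter removed Slc38a4 and Slc7a11 and left the other fitted differences unchanged. The percentile over probes well above background moved the median of all genes to -0.14 and the share of calls that were higher to 38.5%, in place of 0.04 and 54.3%. Slc7a5 turned to -0.61 with its other probe, -0.13 with the mean of probes and -0.19 in the authors' deposited table. Slc7a1 turned to -0.14 under normexp with quantile scaling, -0.18 with that percentile, -0.16 under quantile scaling alone, -0.0564 in the authors' deposited table, and lay between -0.0648 and 0.0519 with 1 array left out, negative without wound replicate 2 (-0.0648) or skin replicate 2 (-0.0134). Slc1a4 lay between -0.339 and 0.0465 with 1 array left out, positive without wound replicate 1 (0.0249) or skin replicate 2 (0.0465). The cause was not tested. Slc38a2 also lost its call with no filter (limma adjusted p = 0.0960). The groups share replicate numbers 1 and 2, which the labels tie to no animal or day, and the deviations of same-numbered arrays correlated at 0.153 over 16738 genes, which does not settle whether they are pairs. With the replicate number as a block, 5604 genes and 4 transporters passed, without Slc38a2 (limma adjusted p = 0.0662). The synthetases that rose numbered 1 under quantile scaling alone, with no filter and with that percentile, and the cystine and glutathione genes that rose numbered 1 with no filter and with that percentile. Normexp on median spot signals was chosen after seeing the data.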
